A study of Mus musculus with 24 samples.

Results

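Loss of Chop in adult S63del nerve was examined by setting the 2 arrays labelled S63del/Chop null at 4 months against the 2 arrays labelled S63del at 4 months, chosen by title, so 4 of the 24 arrays of the series carry the comparison. All 22690 probe sets were read. RNA came from whole sciatic nerve of mice whose perineurial sheath had been stripped, and each array is labelled a biological replicate; whether animals were pooled was not given in the sources used here, and p-values measure the spread between these arrays. The series holds 4 genotypes at 3 ages, postnatal day 5 (P5), P28 and 4 months, with 2 arrays in each of 12 groups. Both groups compared carry S63del, a mutant allele that causes a neuropathy. S63del/Chop null mice also lack Chop, the gene Ddit3. The 4-month WT mice carry neither change, and the Chop null mice lack Ddit3 in a nerve without the mutant protein. The labels describe S63del nerve as neuropathic and S63del/Chop null nerve as neuropathic but rescued, and the design text names 4 months as the age at which that rescue is clearest. The comparison therefore asks which transcripts accompany the rescue.

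Schwann cells make the myelin of peripheral nerve. The S63del protein misfolds in these cells, is held in the endoplasmic reticulum (ER) and sets off the unfolded protein response, a programme in which the sensors PERK, IRE1 and ATF6 slow translation and raise chaperones. CHOP is a transcription factor at the end of the PERK and ATF4 branch, known for targets that restart translation, oxidise the ER lumen or promote cell death. Loss of CHOP is known to ease demyelination in S63del mice without removing the mutant protein.

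Values are log2 expression as deposited, and a difference of 1 is a 2-fold change. Levels are compared for the same gene between arrays, never between genes. Changes are log2 differences ± SE from limma, S63del/Chop null minus S63del, with Benjamini-Hochberg adjustment over 12393 genes and a threshold of 0.05. In whole nerve, fewer cells of a type and less RNA per cell cannot be told apart.

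The 4 arrays expressed the genes that define nerve. Sox10, the Schwann cell lineage factor, lay between 11.02 and 11.10. Pmp22, a protein of compact myelin, lay between 14.15 and 14.18. S100b, another Schwann cell marker, lay between 11.96 and 12.03. The array medians over the series ran from 6.84 to 7.03.

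The 2 arrays labelled S63del/Chop null differed from each other in the genes that the mutant protein changes, and this bears on every result that follows. To show it, 96 genes were taken that limma called in S63del against WT at both P5 and P28, 59 of them higher in the mutant and 37 lower. The set at both ages is one of several alternatives and was put forward after the values were seen. The 4-month arrays did not choose these genes. For each array the mean of the falling genes was subtracted from the mean of the rising genes. At 4 months the score was -0.88 and -1.07 in WT and -0.30 and -0.39 in S63del, without overlap. S63del/Chop null replicate 2 scored -0.39, at the level of S63del, while replicate 1 scored -1.14, below both WT arrays. The Chop null arrays were split as well, with -0.52 in replicate 1, nearer the S63del arrays, and -0.93 in replicate 2, between the WT arrays. Of the 96 genes, 15 in S63del/Chop null replicate 1 and 79 in replicate 2 lay nearer the S63del mean than the WT mean, against 59 in Chop null replicate 1 and 19 in Chop null replicate 2. Such a split was not seen at P5 or P28, where the 2 S63del/Chop null arrays differed by 0.0124 and 0.0167 in this score. The gap between the 2 arrays at 4 months depended on the genes taken: it was 0.752 with these 96 genes, 0.512 with those called at P28, 0.479 with those called at P5 and 0.478 with those called at either age. Replicate 1 lay below both WT arrays in all of these sets but that of P5, where it scored -1.51 against -1.32 and -1.53 in WT.

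**Figure D1:**
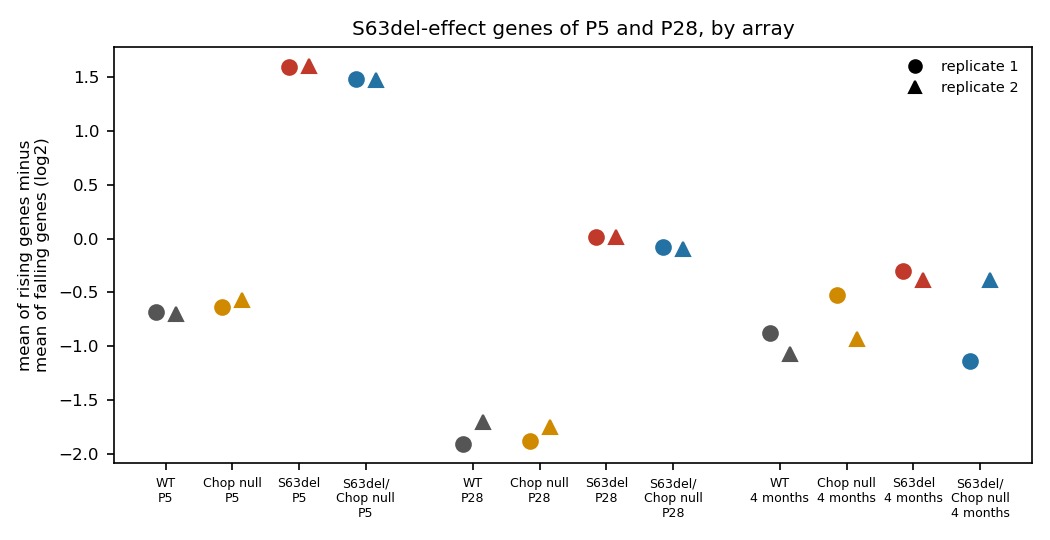
Each point is 1 array and the y axis is the mean log2 expression of 59 genes higher in S63del minus that of 37 genes lower in S63del. The genes, Ddit3 among them, were chosen on differences at P5 and P28. The 4-month differences did not enter the choice, but all arrays share the spread estimate. At 4 months S63del/Chop null replicate 1 (-1.14) sits with WT and replicate 2 (-0.39) with S63del, while Chop null replicate 1 (-0.52) lies nearer S63del than replicate 2 (-0.93) does.

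Over all genes each of the 8 arrays of this age correlated best with an array of another genotype. Across the 12393 genes of an array, which are not independent replicates, S63del/Chop null replicate 1 had its highest correlation with Chop null replicate 2 (Pearson's r = 0.9963), and its r with its own replicate was 0.9936. Replicate 2 had its highest values with the S63del arrays (r = 0.9968 and 0.9967). Chop null replicate 1 in turn had its highest r with S63del/Chop null replicate 2 (0.9963), against 0.9937 with its own replicate. WT replicate 1 stood furthest from the rest, with r from 0.9876 to 0.9923. Ddit3, given next, separates the arrays that lack Chop from those that have it but reads alike in S63del/Chop null and Chop null. It therefore cannot tell these 2 genotypes apart. Some values, which are not readouts of the S63del allele, set both S63del/Chop null arrays apart from both Chop null arrays. The Y-linked gene Kdm5d read 4.15 and 5.55 against 6.59 and 6.61. The Gapdh 3′ minus 5′ difference (below) was 0.35 and 0.55 against 0.03 and -0.04. An exchange of labels between S63del/Chop null replicate 1 and Chop null replicate 1 was not tested. If there was one, the replicate 1 values of both groups would belong to the other genotype. Labels were kept as deposited. Without both arrays the Ddit3 difference was -2.35, in a fit added after the values were seen. Because Ddit3 reads alike in the 2 genotypes, this value does not bear on an exchange. Results are given for each replicate in many cases. Where only 1 median of a list is given, it is that of the mean differences, and the replicates may differ.

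Ddit3 was the one gene called in the comparison, at 1 of 12393 genes (0.00807%). The S63del arrays read 9.21 and 9.002, and the S63del/Chop null arrays 6.70 and 6.76. The groups do not overlap and differ by more than either pair of replicates. The log2 difference was -2.38 ± 0.19 (limma, 2 against 2 arrays, adjusted p = 1.11e-05), a 5.20-fold lower signal. In nerve without the mutant the WT arrays read 9.09 and 8.29 and the Chop null arrays 6.75 and 6.80, a difference of -1.92 ± 0.19 (limma, adjusted p = 0.000272). All 4 arrays that lack Chop thus lay between 6.70 and 6.80. Where the probes lie relative to the deleted part of the gene was not given in the sources used here, so the remaining signal cannot be split into background and transcript. The call was lost when the 8 arrays of this age alone gave the spread (limma, adjusted p = 0.156); over 16 settings the difference ran from -2.48 to -2.09 and the adjusted p from 3.12e-09 to 0.156.

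At the younger ages Ddit3 separated the same genotypes. The P28 arrays read 9.13 and 9.05 in S63del against 6.78 and 6.77 in S63del/Chop null, and the P5 arrays 9.59 and 9.52 against 6.93 and 6.82. These differences were -2.32 at P28 and -2.68 at P5, and neither differed from that at 4 months (limma, unadjusted p = 0.831 and 0.29). WT nerve read 7.66 and 7.61 at P5, 8.19 and 8.16 at P28, and 9.09 and 8.29 at 4 months, and the gap between S63del and WT was 0.42 ± 0.19 at 4 months and did not pass the test (limma, adjusted p = 1). WT replicate 1 lay within the range of the S63del arrays. Without it the gap was 0.81 ± 0.17 (limma, adjusted p = 0.107), and with Chop null replicate 2 of P28 also left out it was called (limma, 0.81 ± 0.12, adjusted p = 0.0131).

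The promoter of Ddit3 is shown because it is the one gene called. The RefSeq window of build GRCm38.p6 covers the 250 bases before the start site at chr10:127290543-127290792 on the plus strand, and capitals mark a CCAAT box read on the other strand, 77 bases before the start.

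Ddit3: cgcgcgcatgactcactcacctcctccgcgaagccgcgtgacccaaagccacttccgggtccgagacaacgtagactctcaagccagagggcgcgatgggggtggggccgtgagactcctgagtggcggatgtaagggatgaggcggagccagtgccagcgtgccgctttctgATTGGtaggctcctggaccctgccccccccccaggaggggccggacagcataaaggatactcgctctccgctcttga

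CHOP binds DNA as a partner of other C/EBP and ATF factors, and the composite letters TGATGCAAT, its core TGCAAT and the CCAAT box were searched on both strands in 32851 RefSeq windows running from 250 bases before to 50 after a start. The composite contains the core. The composite was found in 0.192% of windows, the core in 8.4% and the CCAAT box in 37.4%. Of 15 CHOP-linked genes with a window, 0 held the composite, 1 (Trib3) held the core and 8 held a CCAAT box. The Ddit3 window held neither the composite nor the core.

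The 10 measured genes on each side of Ddit3 on chromosome 10 were read because flanking DNA can travel with a targeted allele. None of the 20 was called at 4 months, P28 or P5, or in Chop null against WT at 4 months, and none reached an unadjusted p under 0.05 (limma) at 4 months in S63del nerve. Their differences at 4 months, on the brightest probe set of each gene, ran from -0.34 to 0.29 with a median of 0.002. The lowest was B4galnt1, a ganglioside synthase, at 6.57 and 6.86 in S63del against 6.31 and 6.44 in S63del/Chop null. The highest was Gli1, an effector of hedgehog signalling, at 6.89 and 6.73 against 7.05 and 7.14. Dimmer probe sets of Os9, Pip4k2c and Stat6 lay higher without overlap, with differences of 0.62, 0.55 and 0.38. None of these had an unadjusted p under 0.05 (limma), and no dimmer probe set lay below -0.34.

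Beyond Ddit3, 0 further genes passed the threshold with limma, and 274 genes (2.21%) had an unadjusted p under 0.05, 124 higher (1%) and 150 lower (1.21%). Probe by probe, 1 of 22626 probe sets was called (0.00442%) and 518 had an unadjusted p under 0.05 (2.29%), and that 1 was Ddit3. The arrays of the groups did not overlap for 1814 genes that lay higher (14.6%) and for 2931 that lay lower (23.7%), and the counts below are read against those shares. The 12393 genes had a median difference of -0.03. Leaving out S63del/Chop null replicate 2 gave 17 calls and leaving out replicate 1 gave 1 call, Ddit3, with 59 genes at an unadjusted p under 0.05. Leaving out S63del replicate 1 gave 5 calls, Mmp12, Ddit3, Saa3, Ubd and Wfdc21, all lower in S63del/Chop null; those other than Ddit3 and Saa3 are named here only for this count.

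**Figure D2:**
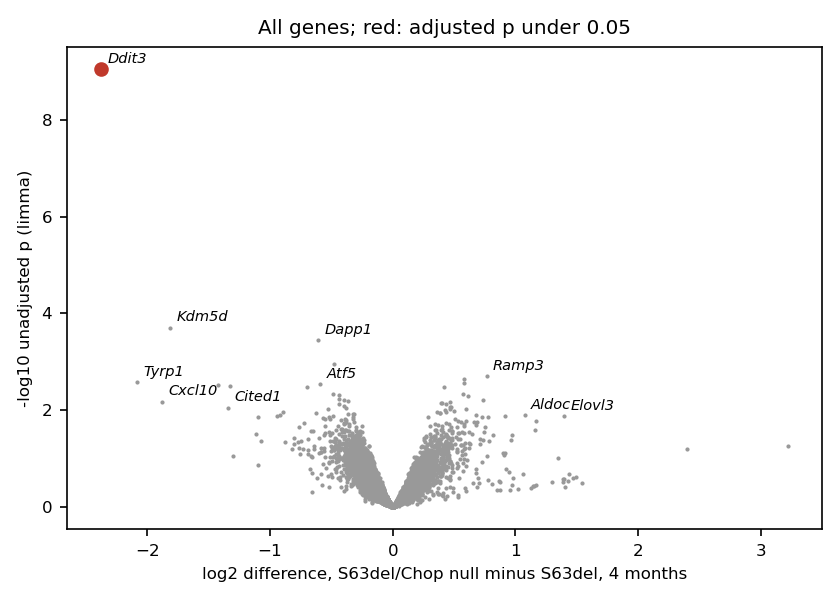
Each point is 1 of 12393 genes, with the log2 difference between S63del/Chop null and S63del at 4 months on the x axis and -log10 of the unadjusted limma p on the y axis. Ddit3 (-2.38, red) is the one gene past an adjusted p of 0.05, and Kdm5d, Tyrp1, Cxcl10 and Cited1 follow on the same side without passing it.

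The genes that CHOP is known for held no call at this age. Of 18 CHOP-linked genes measured, 0 were called, and 0 had an unadjusted p under 0.05 (limma) higher and 2 lower. The median difference was -0.06, with -0.12 in replicate 1 and 0.008 in replicate 2. Arrays did not overlap for 1 higher and 6 lower. Atf5, a factor of the mitochondrial and ER stress responses, was the lowest: 9.32 and 9.45 in S63del against 8.82 and 8.78 in S63del/Chop null, a difference of -0.59 ± 0.17 (limma, unadjusted p = 0.00286, adjusted p = 0.999). Both S63del/Chop null arrays lay lower by nearly the same amount, by -0.57 and -0.61, unlike most genes described here. Atf5 read 8.93 and 9.49 in WT and 8.87 and 8.94 in Chop null, so the single WT array of 8.93 lay at the level of the arrays without Chop. At P28 and P5 the Atf5 differences were -0.45 and -0.69, on other arrays, and neither passed the test (limma, adjusted p = 1 for both). Cebpg, a C/EBP partner protein, read 9.44 and 9.39 against 9.15 and 9.16, a difference of -0.26 ± 0.12 that did not pass either (limma, adjusted p = 0.999).

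Other well-known targets gave small differences. Ppp1r15a, which encodes GADD34 and reverses the translational block, read 8.87 and 9.004 in S63del against 8.90 and 9.01 in S63del/Chop null, a difference of 0.02 ± 0.18. Ero1a, an ER oxidase, read 9.21 and 9.15 against 9.02 and 9.13. Trib3, an inhibitor of AKT, read 6.46 and 6.39 against 6.32 and 6.28. None of these 3 genes was called, and the intervals are wide: the 95% confidence interval of the Ppp1r15a difference ran from -0.37 to 0.40. Chac1, a glutathione-degrading enzyme, lay higher in S63del/Chop null replicate 2 alone, at 5.91, against 5.47 in replicate 1 and 5.35 and 5.48 in S63del.

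Car6, a carbonic anhydrase with an intracellular stress-induced form, was called at P5 and not at 4 months. At P5 it read 5.90 and 5.61 in S63del against 3.44 and 3.58 in S63del/Chop null, and it was called beside Ddit3 (limma, -2.24 ± 0.27, adjusted p = 0.00167). At 4 months all 4 arrays lay between 3.51 and 3.73 and the difference was -0.05 ± 0.27. The difference between the ages was 2.19 ± 0.38 and did not pass the threshold over all genes (limma, adjusted p = 0.337), but it did under 4 of 16 alternatives, namely quantile normalization, array weights, the arrays of the 2 ages alone, and the fit that leaves out WT 4-month replicate 1 with P28 Chop null replicate 2.

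The unfolded protein response itself lay slightly lower in S63del/Chop null, within the spread. Of 27 measured ER chaperones and folding enzymes 0 were called, 25 had a difference under 0 (92.6%, beside 58.8% of all genes), and arrays did not overlap for 1 higher and 12 lower. The list's median was -0.18 in replicate 1 and -0.07 in replicate 2, relative to the S63del mean, beside -0.03 and -0.02 over all genes. Hspa5, the chaperone BiP, read 12.86 and 12.64 in S63del against 12.29 and 12.56 in S63del/Chop null, and 12.70 and 12.24 in WT. Creld2, an ER folding factor, read 9.70 and 9.26 against 8.77 and 9.20. The genotypes do not overlap for either gene, but by a narrow margin, and a WT array lies inside the S63del range for each.

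The sensors and other branches were similar. Of 15 sensors and regulators 0 were called, 13 lay under 0 (86.7%) and the median was -0.11. Eif2ak3, which encodes PERK, read 9.61 and 9.47 against 9.15 and 9.38, while Xbp1, the factor spliced by IRE1, read 11.84 and 11.68 against 11.66 and 11.80 and overlapped. Atf4 read 10.34 and 10.41 against 10.19 and 10.33. Of 30 ATF4 targets of amino acid metabolism 0 were called, 1 had an unadjusted p under 0.05, and the median was -0.04; Asns, asparagine synthetase, read 8.86 and 8.54 against 8.83 and 8.73. In the 25 genes of ER-associated degradation and translocation 0 were called. Their median was -0.06, with -0.12 in replicate 1 and -0.009 in replicate 2. The 18 aminoacyl-tRNA synthetases had 0 calls and a median of -0.02, and the 16 cytosolic heat shock proteins 0 calls and -0.05.

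The larger differences were carried mainly by S63del/Chop null replicate 1. Tyrp1, an enzyme of melanin synthesis, read 7.43 and 7.35 in S63del, 6.54 in S63del/Chop null replicate 2 and 4.07 in replicate 1, with 4.23 and 5.16 in WT and 6.79 and 4.87 in Chop null. On this probe set replicate 1 thus lay below WT and replicate 2 nearer S63del. The mean difference was -2.08 ± 0.59 (limma, unadjusted p = 0.00263, adjusted p = 0.999). The other 2 Tyrp1 probe sets gave differences of -1.84 and -1.15, and on both replicate 2 lay nearer WT than S63del. The first read 6.61 and 6.77 in S63del, 4.08 in replicate 1, 5.62 in replicate 2, and 4.63 and 5.28 in WT. The second read 5.81 and 5.92 in S63del, 4.19 in replicate 1, 5.24 in replicate 2, and 4.80 and 4.96 in WT.

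Cxcl10, a chemokine for T cells, read 9.04 and 8.70 in S63del, 8.48 in S63del/Chop null replicate 2 and 5.50 in replicate 1. WT read 6.38 and 6.92, and Chop null 8.54 and 6.96. Cited1, a transcriptional co-regulator, followed the same order, at 6.88 and 7.50 in S63del, 6.79 in replicate 2 and 4.91 in replicate 1, with 5.10 and 5.22 in WT. Neither passed the test over both replicates (limma, adjusted p = 0.999 for both), and their differences were -1.88 ± 0.61 and -1.34 ± 0.45. Tyrp1, Cxcl10 and Cited1 were all called without S63del/Chop null replicate 2 (limma, adjusted p = 0.0165, 0.00156 and 0.0327), a fit in which replicate 1 stands alone and is assumed to vary like the other groups.

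Aldoc, a glycolytic aldolase, ran the other way. It read 4.61 and 4.88 in S63del, 5.01 in S63del/Chop null replicate 2 and 6.64 in replicate 1. WT read 6.82 and 6.41, and Chop null 5.02 in replicate 1 and 6.16 in replicate 2. The difference was 1.07 ± 0.39 (limma, adjusted p = 0.999), or 1.89 on the log2 scale for replicate 1 and 0.26 for replicate 2. A second, dimmer Aldoc probe set stayed between 3.36 and 4.002 on all 8 arrays.

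**Figure D3:**
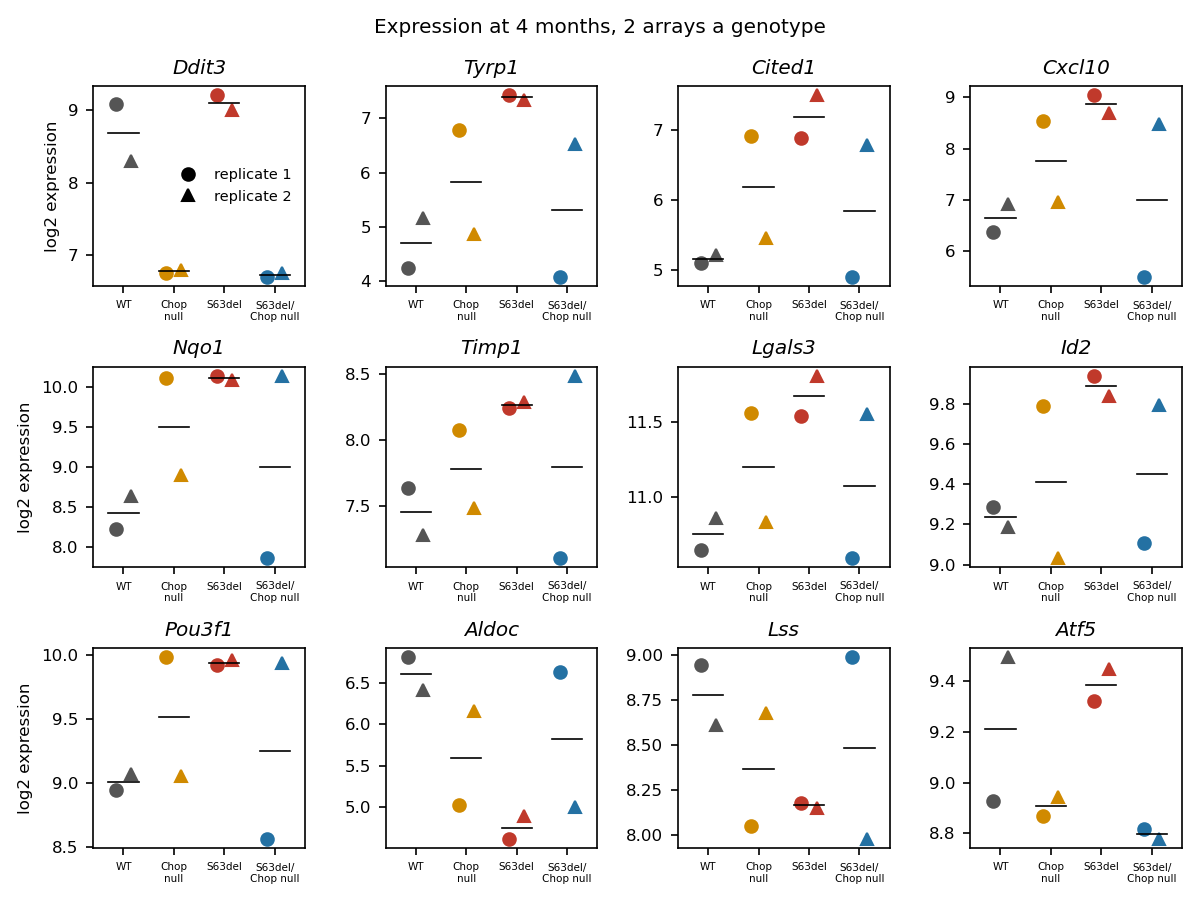
Log2 expression of 12 genes on the 8 arrays of 4 months, with 1 point an array and a line at each group mean. Ddit3 separates the arrays by Chop genotype; Atf5 is low in both S63del/Chop null arrays; in the other 10 genes S63del/Chop null replicate 1 lies nearer WT and replicate 2 nearer S63del. The genes were picked for the plot after their values were seen.

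Several genes of immature and injured Schwann cells differed between the 2 S63del/Chop null arrays, while the list as a whole moved little. Of 30 such genes 0 were called, 12 lay above 0 and 18 under it, the median was -0.13 in S63del/Chop null replicate 1 and 0.0009 in replicate 2, and arrays did not overlap for 5 higher and 7 lower, shares near those of all genes. Pou3f1, the factor of the promyelinating stage, read 9.92 and 9.96 in S63del, 9.94 in replicate 2 and 8.56 in replicate 1, beside 8.95 and 9.07 in WT. Id2, an inhibitor of differentiation, read 9.94 and 9.84 in S63del, 9.79 in replicate 2 and 9.11 in replicate 1, beside 9.29 and 9.19 in WT. On these probe sets replicate 2 lay at or just under the S63del arrays, and replicate 1 lay below both WT arrays. On a dimmer Pou3f1 probe set S63del, at 6.76 and 7.27, overlapped S63del/Chop null, at 6.65 and 7.16, with WT at 6.19 and 7.10. On a dimmer Id2 probe set replicate 1, at 8.29, lay above WT, at 8.22 and 8.14.

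In the next 4 members replicate 1 was the lower of the 2 S63del/Chop null arrays. Sox2, a factor of immature Schwann cells, read 8.42 and 8.34 in S63del against 7.65 in replicate 1 and 8.22 in replicate 2. Ngfr, the neurotrophin receptor of repair cells, read 9.01 and 8.87 against 8.34 and 8.76. The dimmer Ngfr probe sets lay the other way, with differences of 0.27 and 0.19. Gfap, a filament of non-myelinating Schwann cells, read 6.32 and 6.29 against 5.59 and 6.29. Jun, the driver of the repair state, had a narrower range, at 8.96 and 9.07 against 8.69 and 9.001, and WT read 8.65 and 8.77. Id1, another Id factor, lay higher in both arrays, at 8.60 and 8.18, above both S63del arrays, a difference of 0.50 ± 0.17 (limma, unadjusted p = 0.0103, adjusted p = 0.999).

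Enzymes of cholesterol synthesis, which supply the myelin sheath, lay higher mainly in replicate 1. All 19 measured members had a mean difference over 0, yet 0 were called, arrays did not overlap for 5 higher and 0 lower, and 3 had an unadjusted p under 0.05 (limma). The list's median was 0.59 in replicate 1 and -0.003 in replicate 2. Lss, lanosterol synthase, read 8.18 and 8.15 in S63del, 8.99 in replicate 1 and 7.98 in replicate 2, beside 8.95 and 8.61 in WT. Sqle, squalene epoxidase, read 9.35 and 9.47 in S63del, 10.18 in replicate 1 and 9.44 in replicate 2, beside 10.03 and 10.07 in WT. Mvk, mevalonate kinase, was 1 of the 5 genes without overlap. It read 6.73 and 6.82 in S63del, 7.19 in replicate 1 and 6.97 in replicate 2. The direction of the list's median therefore rests on 1 array, while in those 5 genes both replicates lay higher.

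Other lipid and myelin genes were less divided. In the 26 genes of fatty acid and sphingolipid synthesis 0 were called, with medians of 0.21 and -0.05 in the 2 replicates; Elovl4, a fatty acid elongase, read 5.79 and 6.09 in S63del, 7.51 in replicate 1 and 5.91 in replicate 2. In the 17 measured myelin genes 0 were called, with medians of 0.25 and 0.006. Pmp22 differed by 0.02 ± 0.09. Mag, an adhesion protein of the inner myelin layer, read 9.24 and 9.33 against 9.58 and 9.47, and Gjb1, the gap junction protein connexin 32, read 7.74 and 7.88 against 8.42 and 8.24. Both Mag and Gjb1 were lowest in WT replicate 1, at 8.64 and 7.09, the array with the largest 3′ to 5′ difference (below). Egr2, the master factor of myelination, read 11.57 and 11.41 against 11.12 and 11.45.

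Nqo1 and Srxn1, genes of the oxidative stress programme under NRF2, gave a wide gap between the replicates. The list as a whole differed less, with medians of -0.18 in replicate 1 and -0.07 in replicate 2. Nqo1, a quinone reductase, read 10.13 and 10.09 in S63del, 10.13 in S63del/Chop null replicate 2 and 7.87 in replicate 1. WT read 8.23 and 8.64, and Chop null 10.11 in replicate 1 and 8.90 in replicate 2. Of 20 genes of the list 0 were called, 2 had an unadjusted p under 0.05 lower, and arrays did not overlap for 2 higher and 9 lower. Srxn1, which repairs peroxiredoxins, read 9.03 and 8.99 in S63del, 8.88 in replicate 2 and 7.84 in replicate 1. Hmox1, heme oxygenase, read 9.59 and 9.57 in S63del, 9.46 in replicate 2 and 9.02 in replicate 1.

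Immune genes showed modest differences. Of 30 macrophage genes 0 were called and the medians were -0.10 and 0.04 in the 2 replicates. Lgals3, galectin 3 of phagocytes, read 11.54 and 11.81 in S63del, 10.59 in replicate 1 and 11.55 in replicate 2, beside 10.64 and 10.85 in WT. Csf1r, the receptor that maintains macrophages, read 11.67 and 11.74 against 11.45 and 11.72, and Cd68 8.68 and 9.18 against 8.95 and 8.75. C1qa, a complement subunit, lay higher at 9.93 and 9.87 against 8.81 and 9.36 (0.81 ± 0.35, limma adjusted p = 0.999), and its lowest value of all, 8.17, was in WT replicate 1.

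The other immune lists had 0 calls each. The median of 20 lymphocyte and mast cell genes was -0.26, with -0.34 in replicate 1 and -0.11 in replicate 2. Arrays did not overlap for 1 higher and 9 lower. Tpsab1, a mast cell tryptase, read 8.54 and 8.56 in S63del, 7.43 in replicate 1 and 8.38 in replicate 2. The median of 16 acute phase and JAK-STAT3 genes was -0.19, with -0.27 in replicate 1 and 0.01 in replicate 2. That of 26 cytokines and chemokines was -0.06, and that of 24 genes of antigen presentation and interferon 0.03. Saa3, an acute phase protein, was at 5.15 and 7.07 in S63del against 5.64 and 5.48, so the lower mean in S63del/Chop null rests on S63del replicate 2. Cell cycle genes, 30 of them, had medians of -0.30 in replicate 1 and 0.003 in replicate 2, with 26 of 30 mean differences under 0 (86.7%); Top2a, a topoisomerase of dividing cells, read 6.11 and 6.53 in S63del, 5.21 in replicate 1 and 6.28 in replicate 2. Timp1, an inhibitor of matrix proteases, read 8.24 and 8.29 in S63del and parted to 7.11 in replicate 1 and 8.49 in replicate 2.

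Energy metabolism and structural lists gave small medians. In 29 genes of mitochondrial respiration the medians were 0.09 and -0.04 in replicates 1 and 2, in 20 glycolysis genes 0.17 and -0.01, and in 21 ribosomal protein genes 0.02 and 0.005. The 21 axonal and neuronal genes had medians of 0.14 and -0.04, the 28 immediate early genes -0.07 and 0.02, the 23 genes of apoptosis and p53 -0.10 and 0.02, and the 15 ion channel and node genes 0.12 and 0.03. None of these lists held a called gene. Nefl, the light neurofilament, read 6.19 and 6.50 against 6.68 and 6.46 and overlapped. Kcnj10, a potassium channel, read 6.96 and 6.99 in S63del, 5.90 in replicate 1 and 6.81 in replicate 2, a difference of -0.62 ± 0.22 that did not pass (limma, adjusted p = 0.999).

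**Figure D4:**
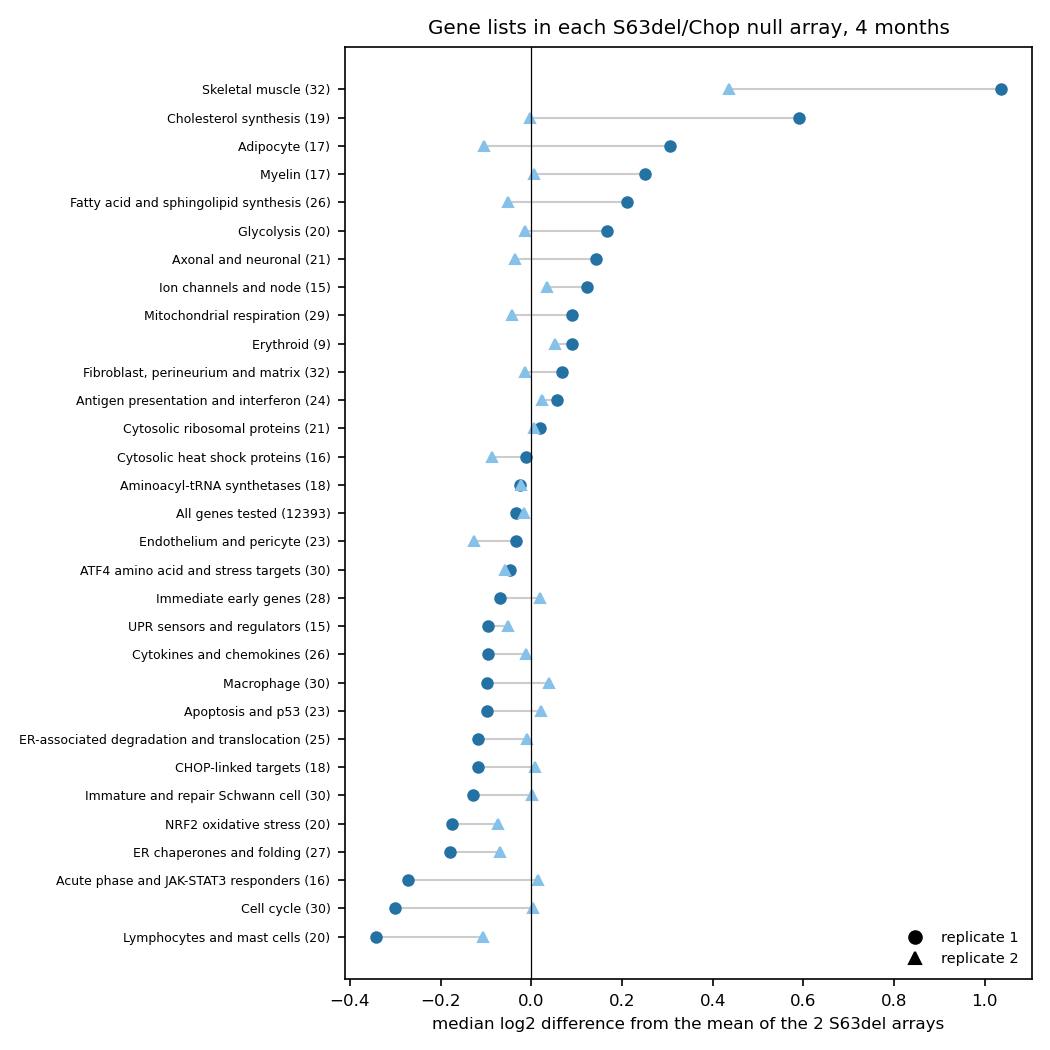
Median log2 difference of each gene list in S63del/Chop null replicate 1 (circles) and replicate 2 (triangles) from the mean of the 2 S63del arrays, with the number of measured genes in brackets. Skeletal muscle genes lie highest in both replicates (1.04 and 0.43), and cholesterol synthesis genes lie at 0.59 in replicate 1 and -0.003 in replicate 2, and 0 genes of these lists were called.

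Genes of neighbouring tissues varied from array to array. Of the 10 genes named as the largest non-overlapping rises, none past the threshold, 7 are genes of skeletal muscle fibres: Actn3, Tnnt1, Pvalb, Ckm, Mylpf, Tnnc2 and Myl1. The mean over 32 skeletal muscle genes was 8.41 and 7.01 in S63del, 8.74 and 8.17 in S63del/Chop null, 6.53 and 6.86 in WT and 7.40 and 9.39 in Chop null, and 0 of the 32 were called. Ckm, muscle creatine kinase, read 9.16 and 7.27 in S63del against 9.82 and 9.40, while Chop null spanned 8.13 to 10.84. The 2 S63del arrays lay further apart than the genotype means did (1.40 ± 1.20). Cenpb, a centromere protein and another of the 10, read 5.76 and 6.28 in S63del against 7.57 and 6.80, and its lowest value, 5.39, was in WT replicate 1. Spon1, an extracellular matrix protein, read 8.41 and 7.54 against 9.76 and 8.52, and 9.47 and 7.55 in WT. The part of muscle RNA in the results was not tested.

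Brown fat genes were high in a single array. Ucp1, the uncoupling protein of brown fat, read 10.64 in S63del/Chop null replicate 1 and 4.14 in replicate 2, beside 4.15 and 4.20 in S63del. Cidea, a lipid droplet protein, read 9.50 in replicate 1 and 4.73 in replicate 2, and Elovl3, an elongase of brown fat, 6.51 and 3.76. General fat cell genes were mixed. Adipoq, adiponectin, read 13.19 and 12.95 in S63del against 13.33 and 12.96 in S63del/Chop null. Lipe, hormone-sensitive lipase, read 8.30 and 8.32 in S63del, 9.003 in replicate 1 and 8.42 in replicate 2. Over 17 adipocyte genes the medians were 0.31 and -0.10 in the 2 replicates, the list mean ran from 9.83 to 11.06 over the 8 arrays and was highest in replicate 1, and 0 genes were called. Elovl3 was among the 17 calls made without replicate 2.

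Sex-linked transcripts differed between the groups as well. Kdm5d, a Y-linked histone demethylase, read 6.40 and 6.92 in S63del against 4.15 and 5.55 in S63del/Chop null, a difference of -1.81 ± 0.38 (limma, unadjusted p = 0.000197, adjusted p = 0.999). Eif2s3y, a Y-linked translation factor, read 7.52 and 8.04 against 5.70 and 7.01, and Uty, another Y-linked demethylase, 5.75 and 6.75 against 4.32 and 5.52. Xist, the X-inactivation RNA, was 9.94 and 8.86 against 10.34 and 10.28, above all other arrays of this age. The sex of the animals was not given in the sources used here. In the 5 measured genes of the list 0 were called, and the part of sex in the other results was not tested.

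Vessel, blood and matrix lists completed the picture of mixed tissue. The 23 endothelial and pericyte genes had medians of -0.03 and -0.13 and 0 calls. Myh11, smooth muscle myosin, read 10.32 and 9.16 in S63del against 8.71 and 8.88 in S63del/Chop null (-0.94 ± 0.34, limma adjusted p = 0.999). Alas2, the heme enzyme of red cells, read 8.10 and 7.94 against 9.03 and 8.95. It read 9.30 and 8.95 in WT and 7.65 and 9.29 in Chop null, and 9 erythroid genes had a median of 0.12. The 32 genes of fibroblasts, perineurium and matrix had medians of 0.07 and -0.01, and Col1a1 and Dcn, matrix proteins of fibroblasts, differed by -0.21 ± 0.14 and -0.06 ± 0.10.

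The control probe sets, which read the 3′ end, middle and 5′ end of a transcript, separated the groups compared. The Gapdh 3′ minus 5′ difference, which grows as RNA is degraded or incompletely copied, was 1.32 and 1.05 in S63del against 0.35 and 0.55 in S63del/Chop null, without overlap. It was 2.12 and 0.08 in WT and 0.03 and -0.04 in Chop null, while the arrays of P28 spanned -0.05 to 0.39 and those of P5 -0.22 to -0.17. The beta-actin difference was 1.23 and 1.16 in S63del, 0.87 and 1.09 in S63del/Chop null, and 1.82 in WT replicate 1. With the Gapdh difference of each array as a covariate, an alternative added after the values were seen, Ddit3 remained the one call (limma, -2.09, adjusted p = 2.44e-06), and 26 of 210 named genes changed sign, none of them called.

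**Figure D5:**
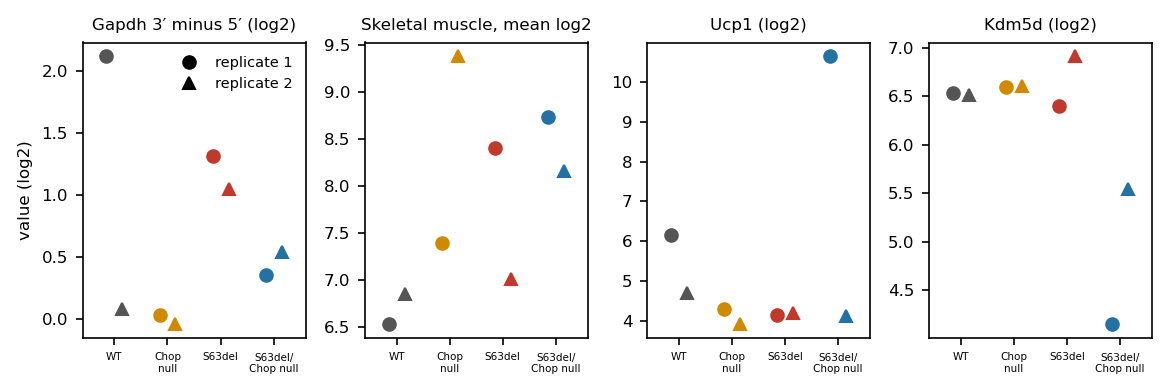
Values on the 8 arrays of 4 months for the Gapdh 3′ minus 5′ log2 difference, the mean log2 expression of 32 skeletal muscle genes, Ucp1 and Kdm5d. The Gapdh difference is 1.32 and 1.05 in S63del against 0.35 and 0.55 in S63del/Chop null; Ucp1 is at 10.64 in S63del/Chop null replicate 1 and at 6.15 or lower on the other 7 arrays; Kdm5d is lower in both S63del/Chop null arrays than in the other 6.

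A few genes lay at like values in the 2 S63del/Chop null arrays and apart from S63del; they were picked out after their values were seen. Dapp1, an adaptor protein of B cell signalling, read 6.05 and 6.20 in S63del against 5.52 and 5.51, a difference of -0.61 ± 0.14 with the third smallest p of all genes (limma, unadjusted p = 0.000358, adjusted p = 0.999). WT read 5.71 and 5.64 and Chop null 5.42 and 5.24. A dimmer Dapp1 probe set read 5.03 and 4.80 in S63del against 4.63 and 4.825 in S63del/Chop null and overlapped. Doc2a, a calcium sensor of exocytosis, read 5.32 and 5.19 against 4.81 and 4.73, with WT at 5.15 and 5.16. Mgl2, a lectin of macrophages and dendritic cells, read 6.67 and 7.03 against 7.38 and 7.49, and Chop null, at 7.26 and 7.22, also lay above WT, at 6.78 and 6.72. None passed the threshold.

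A wider set of 768 genes called in S63del against WT at P28 or P5 was also followed, chosen on arrays of the other ages, although all arrays share the spread estimate. The calls were 572 genes at P28 (4.62%) and 298 at P5 (2.4%), and genes called in opposite directions were left out. Of the 768, 453 were higher in the mutant and 315 lower, and Ddit3 is among them. At 4 months 578 of the 768 had a mean difference opposite to the mutant effect. For the 453 higher genes the like share of all genes is the 58.8% that lay under 0. For the 315 lower genes it is the 5101 of 12393 that lay above 0. Arrays did not overlap for 229 opposite to the mutant effect and 69 along it. In all 1 gene was called, and 38 and 5 had an unadjusted p under 0.05 (limma) in these directions. The genes that the mutant raised had a median of -0.21 in replicate 1 and -0.01 in replicate 2, and those that it lowered 0.12 and -0.02. The median over all 768 of the difference turned against the mutant effect was 0.18 in replicate 1 and -0.003 in replicate 2, and 0.096 over both, so the shift is present in 1 array and absent in the other. The S63del against WT values of the same genes at 4 months were 0.12 and -0.12, a comparison that shares the S63del arrays.

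For the mutant itself at 4 months, limma called 0 genes in S63del against WT, with 577 at an unadjusted p under 0.05 (4.66%). Cxcl10 lay 2.22 ± 0.61 higher in S63del than in WT, Tyrp1 2.70 ± 0.59 and Nqo1 1.68 ± 0.47, and Aldoc differed by -1.86 ± 0.39 (limma, adjusted p = 0.589 for each). The same S63del arrays enter the Chop comparison, so the opposite signs there are not separate evidence. With WT 4-month replicate 1 and P28 Chop null replicate 2 left out, 39 genes were called in S63del against WT. Single arrays moved the count too, to 2 without WT replicate 1, 8 without WT replicate 2 and 12 without S63del replicate 1.

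Loss of Chop in nerve without the mutant was read on 4 other arrays. Chop null against WT gave 1 call, Ddit3 (0.00807%), with 733 genes at an unadjusted p under 0.05 (5.91%). Dusp3, a phosphatase, and Csn2 were named after their values were seen. Dusp3 read 10.43 and 10.33 in WT and 9.81 and 9.89 in Chop null, without overlap (-0.53 ± 0.10, limma adjusted p = 0.171), and in S63del nerve it differed by -0.17 ± 0.10. Csn2, a casein of milk, read 6.43 in Chop null replicate 1 and 4.53 in replicate 2, against 3.66 and 3.85 in WT. Without WT replicate 2 the count was 361, a fit in which WT replicate 1, the array with the Gapdh difference of 2.12, stands alone. Without Chop null replicate 2 it was 6, of which 4 are casein genes (Csn1s1, Csn1s2a, Csn2 and Csn3).

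Whether Chop loss acted differently in S63del and WT nerve was tested as an interaction, and 0 genes were called, with 322 at an unadjusted p under 0.05 with limma (2.6%). St6galnac5, a sialyltransferase named after its values were seen, read 8.54 and 8.46 in S63del, 8.89 and 8.87 in S63del/Chop null, 9.38 and 9.25 in WT and 8.56 and 8.99 in Chop null (interaction 0.92 ± 0.19, limma unadjusted p = 0.000161, adjusted p = 1). Here both S63del/Chop null arrays lay between S63del and WT. Aldoc (2.10 ± 0.55) and Cxcl10 (-2.98 ± 0.86) had large interactions to which S63del/Chop null replicate 1 and Chop null replicate 1 both contribute. Fitted without those 2 arrays, an alternative added after the values were seen, the interaction again gave 0 calls. Leaving out 1 array gave 17 calls without S63del/Chop null replicate 2, 6 without WT replicate 2, 5 without Chop null replicate 2 and 1 without S63del replicate 1.

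The effect of Chop loss in S63del nerve at 4 months was last compared with that at the younger ages. Against P28, 0 genes differed, with 367 at an unadjusted p under 0.05 with limma (2.96%), and against P5 0 differed, with 111 (0.896%). At P28 the same contrast called Ddit3 alone (0.00807%), and at P5 Ddit3 and Car6 (0.0161%). Dapp1 differed by -0.61 at 4 months and by 0.16 at P28 (limma, unadjusted p of the difference = 0.000954, adjusted p = 0.999). Leaving out S63del/Chop null replicate 2 of 4 months gave 3 calls against P28 (Elovl3, Ramp3 and Cxcl10) and 1 against P5 (Elovl3), and leaving out S63del replicate 1 gave 1 against each (Mmp12). Against P5, single arrays of that age mattered as well, with 1 call without S63del replicate 2, 2 without S63del/Chop null replicate 1 and 1 without S63del/Chop null replicate 2.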

How the data were processed

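Biotin-labelled RNA of 24 sciatic nerve samples was read on Affymetrix arrays, per the labels' protocols. The deposited values are log2 expression for 22690 probe sets, a unit inferred from their range. The authors' normalization, software and build were not given in the sources used here. Depth does not apply to arrays, so their number (2 a group) limits the precision. Of the probe sets, 64 are controls, 20380 carry 1 gene symbol, 691 several and 1555 none; the last 2 kinds name no gene here. Symbols come from the platform annotation, and 20351 probe sets matched the table of assembly GRCm38.p6 by gene ID, which gave gene order. Where a gene had more than 1 probe set (4956 genes) the brightest over all arrays was kept, which left 12393 genes.

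A model of group means over the 24 arrays was fitted in limma 3.58.1 (lmFit, eBayes; R 4.3.3, statmod 1.5.0) on 12 residual degrees of freedom, two-sided, with p-values adjusted by Benjamini-Hochberg over every gene at a threshold of 0.05. Contrasts were S63del/Chop null against S63del, Chop null against WT, their interaction, S63del against WT, and the first contrast at 4 months against P28 and P5. The 31 gene lists hold 739 genes, 665 of them measured. They are described by counts and medians beside all genes and were not tested as sets. Some genes stand in more than 1 list, and some genes are not analysed here.

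Named genes are those past the threshold without overlap of arrays, topped up to 10 each way with non-overlapping genes of a log2 difference of at least 1 in order of p, the 4 members of smallest p in each list, fixed stress and Schwann cell genes, and the neighbours of Ddit3. By this rule 10 rises and 7 falls were named. Genes outside it are marked in the text as chosen after their values were seen; Elovl3 and Ramp3 are also such genes. The members, lists and comparisons were chosen with earlier results of these data known. Whether replicate numbers pair arrays was checked by the correlation of deviations from group means over genes. It was 0.10 for S63del and S63del/Chop null at 4 months, -0.15 at P28 and 0.08 at P5. At 4 months it was -0.09 for WT and Chop null and -0.48 for Chop null and S63del/Chop null, whose equal numbers thus deviated in opposite directions. The numbers were not taken as pairs.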

Additional observations from a re-analysis of the deposited data

How the results depend on the processing

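The call of Ddit3 alone in S63del/Chop null against S63del at 4 months was kept in 13 of 16 alternatives. These include another quantile normalization, the mean of a gene's probe sets, dim genes left out, weights for arrays, robust estimation with an intensity trend, all probe sets, and the 4 arrays alone (adjusted p = 0.0289). With the replicate block the count was 1 in this comparison and 1 in Chop null against WT, and 0 in the other comparisons. With only the arrays of the ages compared it was 0, for Chop null against WT also 0, and for 4 months against P5 1 (Car6). Leaving out single arrays gave 1 to 17 calls in this comparison, 1 to 361 in Chop null against WT, 0 to 17 in the interaction, 0 to 3 against P28, 0 to 2 against P5 and 0 to 12 in S63del against WT. Those fits leave a lone array in a group, assumed to vary like the other groups. With WT 4-month replicate 1 and P28 Chop null replicate 2 left out together the count was 2 (Ddit3 and U2af1) in Chop null against WT, 1 against P5 and 39 in S63del against WT. Against P5 quantile normalization gave 1 call and array weights 2 (Car6 and Mgl2). Crossing the P28 replicate numbers in the block, chosen after seeing the data, gave 0 calls against P28. The shift of the 768 mutant-effect genes ran from -0.003 to 0.179 with single arrays left out and reversed without S63del/Chop null replicate 1 (-0.00292).

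Sign changes of values that were not called were counted: over 15 alternatives at most 40 of 210 named genes changed sign, in the fits without S63del/Chop null replicate 1, alone or with Chop null replicate 1. With 2 arrays a group and unequal arrays, the absence of a call does not show that a gene was unchanged.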
